A study of Ovis aries with 26 samples.

Results

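The subject is 6 genes of the machinery that cuts messenger RNA precursors at their 3′ end, followed over sheep preimplantation development: NUDT21, CPSF6, CPSF7, PCF11, CLP1 and RPRD1A. They were chosen by name, with earlier results of these data known, and all 6 are among the 30186 genes of the expression table. No p-value or share of calls given below allows for that choice. The 26 libraries cover mature oocytes (called MII, with 2 libraries) and embryos of 2 cells (2C, with 4), of 4 cells (4C, with 3), of 8 cells (8C, with 4) and of 16 cells (16C, with 3), then morulae (Morula, with 3) and blastocysts, both early (EarlyB, with 3) and expanded (ExpB, with 4). All embryos came from in vitro fertilization followed by culture, and none was treated. After direct lysis, polyadenylated RNA was amplified as full-length cDNA by a Smart-seq2 protocol. The labels give neither the number of oocytes or embryos in a library nor whether libraries of a stage had separate sources, so every p-value rests on a spread that could be technical. The study's title asks how splicing and alternative polyadenylation change as the embryo's own genome is switched on. Levels are in FPKM (fragments scaled by gene length in kilobases and by 1e6 assigned fragments), which can be set side by side between genes. They count fragments of the polyadenylated RNA of a gene whatever poly(A) site it ends at, over the same gene length in all libraries. A change in RNA length between stages could thus shift a level, and this was not tested. Neither site use itself nor the length of the poly(A) tail was measured.

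Most mammalian genes carry more than 1 poly(A) site, and cutting at one or another sets the length of the 3′ untranslated region. Cleavage factor I is built from NUDT21, which binds UGUA motifs in the RNA upstream of a cut site, together with CPSF6 or CPSF7, whose arginine- and serine-rich ends contact the rest of the machinery. In cultured mammalian cells, loss of NUDT21 or CPSF6 moves cleavage towards sites nearer the stop codon. Cleavage factor II is made of PCF11, which also binds the tail (the carboxy-terminal domain, CTD) of RNA polymerase II and takes part in termination, and CLP1, an RNA kinase that is also found with the tRNA splicing endonuclease. RPRD1A is not a core cleavage factor: it binds the polymerase tail through a domain related to that of PCF11 and works with tail phosphatases.

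Assigned reads, recovered from the steps of the FPKM values, ranged between 16.0 and 35.6 in units of 1e6 per library, and were lowest in the EarlyB libraries (16.0 to 19.9). Oocyte markers (8 of 8 in the table) summed to between 11.7 and 26.2 FPKM in ExpB, against 8218 and 9173 FPKM in MII, while 7 trophectoderm markers summed to between 3328 and 7510 FPKM in ExpB, against 5.59 and 6.09 FPKM in MII with CDX2 and KRT18 at 0. RNA of genes listed as markers of other sources was also detected. Whether it came from such cells or from the embryos themselves was not tested. Markers of cumulus and granulosa cells (12 of 14 in the table) summed to between 168 and 601 FPKM at 4C, against 43.3 and 53.0 FPKM in MII. Sperm markers (6 of 7) summed to between 9.25 and 12.9 FPKM in Morula and 8.57 and 11.1 FPKM in EarlyB, against at most 0.218 FPKM at 16C with PRM2, TNP2 and AKAP4 at 0. Blood markers (6 of 7) summed to between 10.4 and 15.4 FPKM in Morula, against at most 0.148 FPKM at 16C. Most of that Morula sum was CD68 (mean 8.13 FPKM) with HBM at 0, and the highest sum, 20.5 FPKM, was in a library of 2C, nearly all of it HBB. The part of these in the results was not tested, and because each library is a bulk sample, fewer cells of a type and less RNA per cell cannot be told apart.

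The 6 genes did not move together. NUDT21 was the most abundant of them in every library from MII to Morula and fell at the early blastocyst. CPSF6, CPSF7 and PCF11 had lower FPKM up to 16C than from the morula on. CPSF6 and CPSF7 were already higher at 16C than at 8C, by less than the size threshold given below. RPRD1A rose sharply at 16C and fell again, and CLP1 was lower in expanded blastocysts than at 2C. Differences were fitted with limma on log2(FPKM + 1), and a gene was called when its Benjamini-Hochberg adjusted p was under 0.05 and its difference at least 1 on that scale, which understates the changes of genes with low levels. By limma's moderated F test over the 8 stages, 6 of 6 genes had an adjusted p under 0.05, where 93.7% of the 15766 tested genes did. The adjusted p of that test was 2.8e-14 for CPSF7, 2.4e-13 for RPRD1A, 4.7e-12 for PCF11, 1.0e-11 for CPSF6, 2.2e-08 for NUDT21 and 0.0025 for CLP1.

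**Figure D1:**
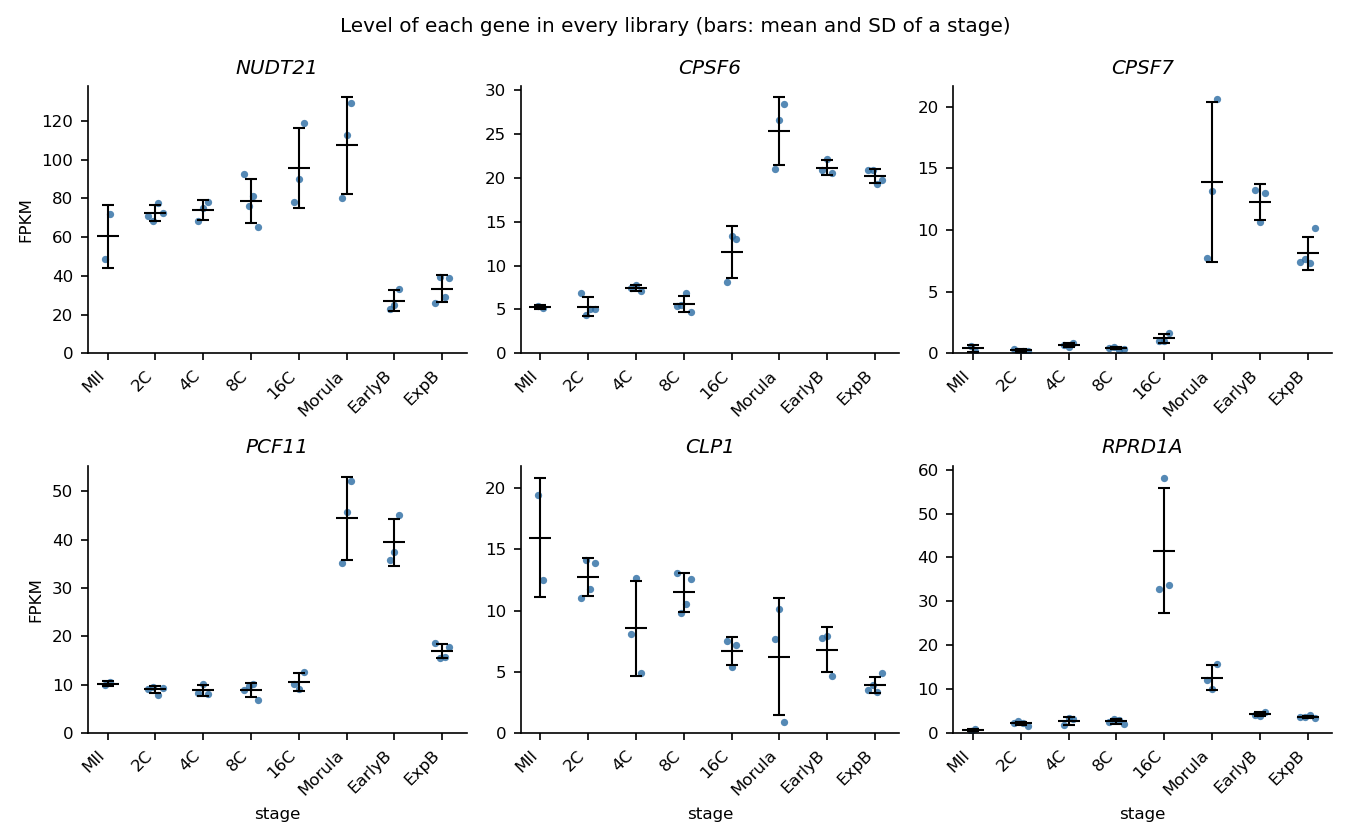
FPKM (linear axes from 0, a panel per gene) of the 6 genes in every library, by stage from MII to ExpB; points are libraries and black bars are stage means with SD. CPSF6, CPSF7 and PCF11 stand higher from Morula on, RPRD1A peaks at 16C, and NUDT21 is lowest in EarlyB and ExpB.

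NUDT21, the RNA-binding subunit of cleavage factor I, stayed high through cleavage. It was at 48.9 and 72.0 FPKM in the MII libraries, at 71.2, 68.4, 77.7 and 72.5 FPKM at 2C, at 68.5, 75.3 and 78.4 FPKM at 4C, and at 92.8, 75.9, 81.2 and 65.1 FPKM at 8C. At 16C it was at 78.4, 90.0 and 119 FPKM and in Morula at 80.0, 113 and 129 FPKM. The levels of these 6 stages overlapped from each stage to the next in order of level. EarlyB libraries held 22.9, 25.2 and 33.3 FPKM and ExpB libraries 25.8, 39.6, 28.9 and 39.0 FPKM, all of them below every library of the other 6 stages. The mean of Morula was 3.96 times that of EarlyB, and on the log2 scale NUDT21 fell by 1.94 ± 0.22 (SE; adjusted p = 2.3e-07) between them. ExpB was lower than 2C by the same test, with a difference of -1.12 ± 0.19 (adjusted p = 1.1e-05) and 2C at 2.17 times the mean of ExpB. Under quantile normalization this second difference was -0.99 and so missed the size threshold.

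CPSF6, the partner of NUDT21 whose loss shifts site choice in cultured cells, was at 5.44 and 5.11 FPKM in MII, at 6.82, 4.31, 5.02 and 5.01 FPKM at 2C, at 7.46, 7.77 and 7.10 FPKM at 4C, and at 5.40, 5.50, 6.82 and 4.74 FPKM at 8C. At 16C it stood at 8.08, 13.4 and 13.1 FPKM. Morula held 21.0, 26.6 and 28.4 FPKM, EarlyB 20.8, 22.1 and 20.5 FPKM, and ExpB 20.9, 20.9, 19.3 and 19.7 FPKM. EarlyB overlapped with both Morula and ExpB, while the lowest Morula library was just above the highest ExpB library. These 10 libraries were all above the 16C libraries, which were in turn all above the earlier ones. Of those, 4C stood just above 8C without overlap, and 8C, 2C and MII overlapped. Between 16C and 8C the difference was 0.90 ± 0.17 (adjusted p = 0.00072), short of the size threshold with the groups not overlapping. CPSF6 rose in Morula over 16C by 1.09 ± 0.18 (adjusted p = 1.8e-05), 2.20 times the 16C mean, and ExpB was 3.82 times 2C (difference 1.77 ± 0.16, adjusted p = 5.2e-10). The Morula call was close to the size threshold: its difference was 0.88 without 16C replicate 1, the lowest library of that stage, and 0.76 with values rescaled to a common sum, with adjusted p values under 0.05.

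CPSF7, the alternative to CPSF6 in cleavage factor I, was scarce before the morula. The MII libraries held 0.576 and 0.221 FPKM, those of 2C 0.389, 0.209, 0.154 and 0.203 FPKM, those of 4C 0.676, 0.510 and 0.820 FPKM, and those of 8C 0.425, 0.536, 0.300 and 0.388 FPKM. At 16C the levels were 0.969, 1.02 and 1.64 FPKM. These low levels rested on few reads, 18 to 49 recovered reads per library at 2C and 111 to 189 at 16C, and on the filter used a gene needed 1 FPKM in 2 libraries to be tested. In Morula CPSF7 was at 7.75, 13.2 and 20.6 FPKM, in EarlyB at 13.2, 10.6 and 13.0 FPKM, and in ExpB at 7.39, 7.61, 7.33 and 10.1 FPKM. The lowest of these 10 libraries was above the highest of the earlier stages, with 510 to 1909 recovered reads behind each. EarlyB overlapped with Morula and stood just above ExpB, and 16C stood above the earlier stages. Of these, 4C was above 2C without overlap, and each overlapped the next in order of level. CPSF7 rose in Morula over 16C by 2.67 ± 0.23 (adjusted p = 2.2e-09), 11.4 times the 16C mean, and in ExpB over 2C by 2.87 ± 0.20 (adjusted p = 6.2e-12), 34.0 times the 2C mean. In the sheep reference gene table TMEM216 overlaps CPSF7, and whether the counting used strand is not stated; TMEM216 averaged at most 1.28 FPKM at any stage, but it was above CPSF7 in MII (0.462 and 0.399 FPKM), at 2C (0.270 and 0.239 FPKM) and at 8C (0.820 and 0.412 FPKM). Its part in the early CPSF7 values, on which the fold over 2C rests, was not tested.

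Because FPKM is per length, the RNA levels of the cleavage factor I subunits can be set side by side within each library, free of how libraries are scaled. Protein was not measured, and the lengths are those of the gene models, not of the RNAs present. The CPSF6 level was between 17.5 and 32.6 times the CPSF7 level at 2C, between 8.66 and 15.2 times at 4C, between 10.2 and 22.7 times at 8C and between 7.93 and 13.1 times at 16C. In Morula it was between 1.37 and 2.71 times, in EarlyB between 1.57 and 2.08 times and in ExpB between 1.95 and 2.83 times. CPSF6 was thus ahead of CPSF7 in every library, by a narrower margin from Morula on. With 0.1 FPKM added to each level, the log2 ratio averaged 1.05 ± 0.38 in the 10 Morula, EarlyB and ExpB libraries and 3.63 ± 0.44 in the 11 libraries of 2C, 4C and 8C (SD). The difference was -2.58, the groups did not overlap, and the exact two-sided permutation test gave p = 2.8e-06, the smallest its 352716 regroupings allow and the same after adjustment over the 3 ratios tested. It treats the 21 libraries as exchangeable although those of a stage share that stage, so this p and those of the other 2 ratios are too small. MII libraries, at 9.43 and 23.1 times, and 16C were not part of that test.

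NUDT21 against its partners gave a like picture. The NUDT21 level was between 9.88 and 15.1 times the summed CPSF6 and CPSF7 level at 2C, between 8.42 and 9.90 times at 4C, between 11.4 and 15.9 times at 8C and between 6.25 and 8.67 times at 16C. It was between 2.64 and 2.84 times in Morula, between 0.671 and 0.993 times in EarlyB and between 0.913 and 1.39 times in ExpB. By these lengths, all 3 EarlyB libraries held less NUDT21 RNA than RNA of its partners. That crossing depends on the gene lengths behind the FPKM values, recovered as 4419 bases for NUDT21, 13226 for CPSF6 and 3573 for CPSF7. The log2 ratio averaged 0.43 ± 0.78 in the 10 later libraries and 3.55 ± 0.32 in the 11 earlier ones (SD), a difference of -3.13 with no overlap (exact permutation p = 2.8e-06, again the smallest possible). The 2 MII libraries stood at 8.13 and 13.5 times.

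**Figure D2:**
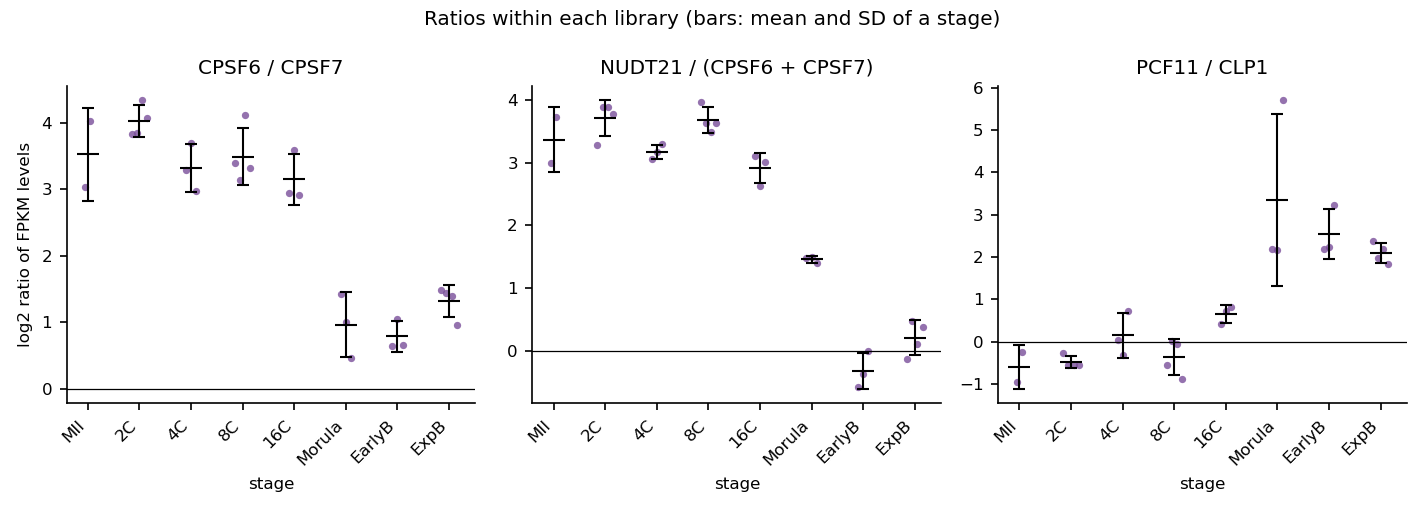
The 3 within-library ratios of levels on a log2 axis by stage (0.1 FPKM added): CPSF6 to CPSF7, NUDT21 to the sum of CPSF6 and CPSF7, and PCF11 to CLP1; points are libraries and black bars are stage means with SD. The first pair of ratios is lower and the last is higher in the 10 Morula, EarlyB and ExpB libraries than in any of the 11 libraries of 2C, 4C and 8C.

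PCF11, the large subunit of cleavage factor II, kept between 6.78 and 12.7 FPKM until 16C. It was at 9.91 and 10.6 FPKM in MII, at 9.18, 9.64, 7.99 and 9.43 FPKM at 2C, at 8.30, 10.1 and 8.18 FPKM at 4C, at 8.91, 9.85, 10.2 and 6.78 FPKM at 8C, and at 10.1, 9.05 and 12.7 FPKM at 16C. Morula libraries held 35.2, 45.9 and 52.2 FPKM, EarlyB libraries 35.9, 37.6 and 45.04 FPKM and ExpB libraries 18.7, 15.6, 15.8 and 17.8 FPKM. In FPKM as deposited, Morula and EarlyB overlapped at the top, ExpB stood apart below them, and every ExpB library was above every library up to 16C. PCF11 rose in Morula over 16C by 1.96 ± 0.18 (adjusted p = 4.2e-09), 4.18 times the 16C mean. It fell in ExpB relative to EarlyB by 1.17 ± 0.17 (adjusted p = 9.6e-06), with EarlyB at 2.33 times the ExpB mean. In that last step the median of all tested genes was also lower, by -0.30, and with median-ratio scaling, which brought that median to -0.08, the PCF11 difference was -0.79 (adjusted p = 0.00061) and no longer passed the size threshold. ExpB over 2C gave 0.84 ± 0.15 (adjusted p = 3.2e-05), under that threshold. On values rescaled to a common sum that difference was 0.30 (limma adjusted p = 0.12), so it depended on the scaling.

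CLP1, the other subunit, tended to lower levels at later stages, with more scatter, and correlated with PCF11 at -0.52 over the 26 libraries. It was at 19.4 and 12.5 FPKM in MII, at 11.1, 14.2, 11.8 and 13.9 FPKM at 2C, at 8.11, 12.7 and 4.91 FPKM at 4C, and at 13.1, 9.78, 10.6 and 12.6 FPKM at 8C. At 16C it stood at 7.55, 5.42 and 7.19 FPKM, in Morula at 7.68, 10.2 and 0.909 FPKM, in EarlyB at 7.77, 7.95 and 4.69 FPKM, and in ExpB at 3.55, 3.92, 3.39 and 4.91 FPKM. Each stage overlapped the next in order of level. Morula replicate 3, with 71 recovered reads, was far below the other 2 morula libraries, and it was the highest of the 3 for NUDT21, CPSF6, CPSF7, PCF11 and RPRD1A. No step between successive stages was called for CLP1. It fell in ExpB relative to 2C by 1.48 ± 0.36 (adjusted p = 0.00076), with no overlap and 2C at 3.23 times the ExpB mean. YPEL4 overlaps CLP1 in the reference table and was also lower late, at a mean of 0.00755 FPKM in ExpB against 2.32 FPKM at 2C; its part in the CLP1 values was not tested.

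The balance of the 2 subunits of cleavage factor II changed accordingly. The PCF11 level was between 0.678 and 0.829 times the CLP1 level at 2C, between 0.798 and 1.67 times at 4C, between 0.538 and 1.01 times at 8C and between 1.34 and 1.77 times at 16C. It was at 4.59, 4.51 and 57.4 times in Morula, between 4.61 and 9.59 times in EarlyB and between 3.62 and 5.28 times in ExpB. By the lengths of the gene models, PCF11 thus led in every library from 16C on. The log2 ratio averaged 2.61 ± 1.15 in the 10 later libraries and -0.27 ± 0.44 in the 11 earlier ones (SD), a difference of 2.88 with no overlap (exact permutation p = 2.8e-06, the smallest possible). In the 2 MII libraries it was 0.511 and 0.846 times.

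RPRD1A, the polymerase-tail binder, had its peak at a stage where none of the other 5 genes was called. It was at 0.521 and 0.931 FPKM in MII, at 2.31, 2.68, 2.25 and 1.69 FPKM at 2C, at 1.78, 3.38 and 3.28 FPKM at 4C and at 2.58, 3.24, 3.003 and 2.01 FPKM at 8C. The 16C libraries held 32.9, 58.0 and 33.7 FPKM. Morula libraries followed with 12.0, 10.1 and 15.7 FPKM, EarlyB with 4.18, 3.87 and 4.81 FPKM and ExpB with 3.73, 3.68, 4.07 and 3.44 FPKM. The lowest 16C library was above the highest of every other stage, and Morula stood apart below it. Both blastocyst stages overlapped, below Morula and, in FPKM as deposited, above all libraries up to 8C. The difference of ExpB over 2C was 0.56 as deposited and 0.13 on values rescaled to a common sum. Stages 4C, 8C and 2C overlapped, and MII was lowest. RPRD1A rose at 16C over 8C by 3.48 ± 0.21 (adjusted p = 6.9e-11), 15.3 times the 8C mean, and over 4C by 3.46 ± 0.22 (adjusted p = 2.2e-10). It fell in Morula relative to 16C by 1.62 ± 0.22 (adjusted p = 1.7e-06) and in EarlyB relative to Morula by 1.35 ± 0.22 (adjusted p = 3.6e-05), the 16C mean being 3.30 times that of Morula and the Morula mean 2.94 times that of EarlyB. The peak rested on 12062 to 19627 recovered reads per library.

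RPRD1A was also higher at 2C than in the oocyte, without overlap. The difference was 0.91 ± 0.24 (adjusted p = 0.015), under the size threshold, but RPRD1A passed it, with a difference of 1.53, with 0.1 in place of 1 FPKM added, and also on recovered reads with limma-voom (1.63). The nearest relatives of RPRD1A did not share its 16C peak in each library. RPRD1B, which has the same tail-binding domain, was at 0.493, 0.0666 and 3.79 FPKM at 16C, and at most at 0.462 FPKM in any library before, and its difference between 16C and 8C was 0.61 (adjusted p = 0.22). In Morula RPRD1B was at 8.54, 7.15 and 14.7 FPKM, and it rose over 16C by 2.44 (adjusted p = 2.1e-06). RPRD2, named here after its values were seen, was between 0.643 and 2.53 FPKM in all libraries and was called in none of the 9 comparisons.

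**Figure D3:**
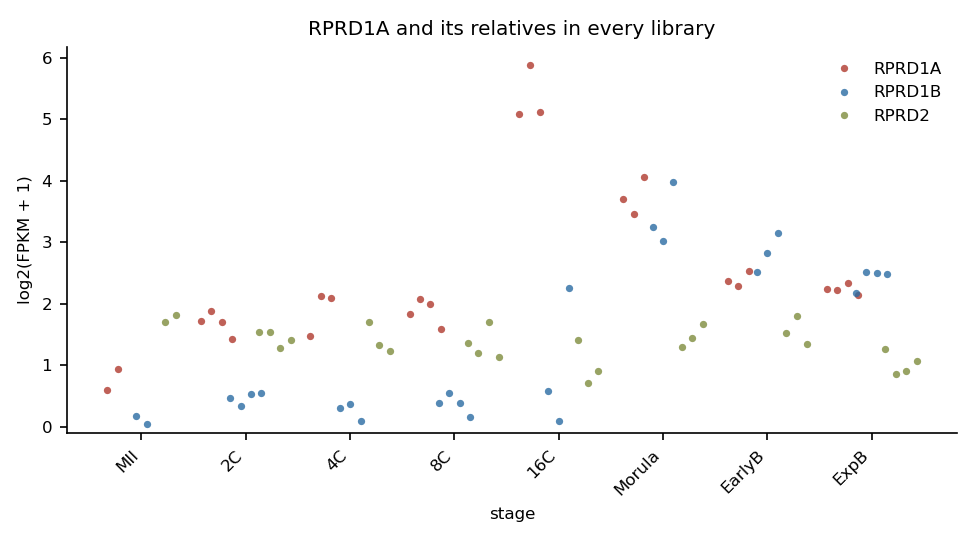
Levels of RPRD1A, RPRD1B and RPRD2 as log2(FPKM + 1) by stage, from MII to ExpB; each point is a library. RPRD1A is highest at 16C (32.9 to 58.0 FPKM), RPRD1B is highest in Morula (7.15 to 14.7 FPKM), and RPRD2 stays between 0.643 and 2.53 FPKM.

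Set against all genes, calls among the 6 followed the stages at which much of the transcriptome moved. Of the 6 genes, limma called 0 at 2C against MII (6.45% of all tested genes called, 4.44% as higher and 2.01% as lower), 0 at 4C against 2C (0.00634%) and 0 at 8C against 4C (0.907%, with 0.577% higher and 0.330% lower). At an unadjusted p under 0.05 each of these comparisons held 1 of the 6 (RPRD1A at 2C, and CPSF6 at 4C and at 8C), and 3686, 1329 and 2460 of all genes. With limma-voom, RPRD1A was called at 2C against MII and none of the 6 in the other 2 steps. At 16C against 8C, 1 of 6 was called (7.55% of all genes; 5.54% as higher), and at 16C against 4C 1 of 6 (8.18%; 5.35% as higher). In Morula against 16C, 4 of 6 were called (43.1%), 3 as higher (28.1%) and 1 as lower (15.0%). In EarlyB against Morula, 2 of 6 were called (27.0%), both lower (12.4%), and in ExpB against EarlyB 1 of 6 (17.7%), also lower (13.1%). ExpB against 2C gave 4 of 6 (54.2%), with CPSF6 and CPSF7 higher (30.7%) and NUDT21 and CLP1 lower (23.6%). With 6 genes, chosen with earlier results of these data known, a share is coarse, and the shares were not tested against those of all genes. Scaling moved the median of all genes: in Morula against 16C it was 0.32 as deposited, 0.18 with values rescaled to a common sum, 0.19 with median-ratio scaling, -0.01 with quantile normalization and 0.73 with limma-voom. The uncalled NUDT21 difference in that comparison, 0.16 as deposited, was -0.22 on the rescaled values, -0.08 under median-ratio scaling and -0.05 after quantile normalization, so its sign depended on the scaling.

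**Figure D4:**
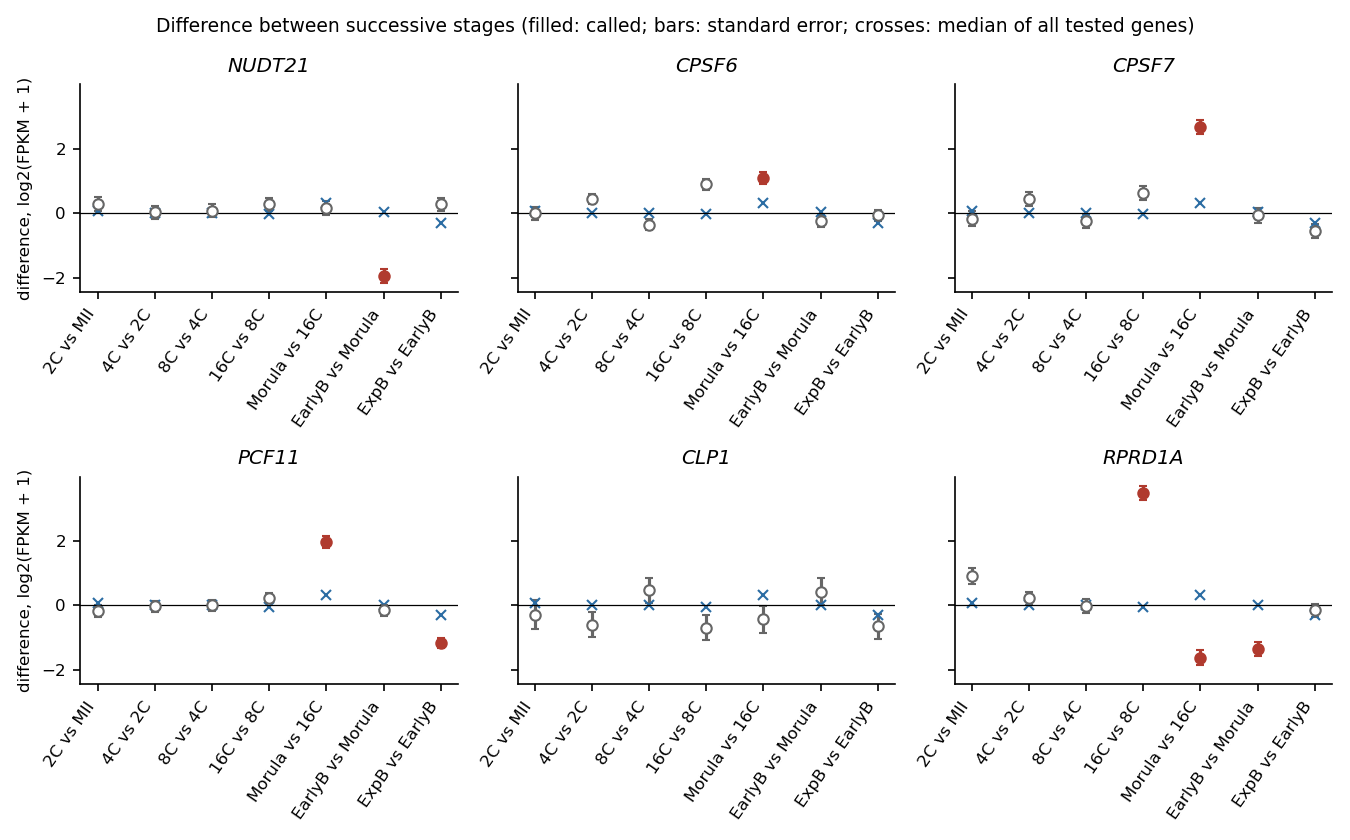
Difference in log2(FPKM + 1) between each stage and the one before it for the 6 genes, with SE bars from the limma fit; filled points passed both thresholds and crosses are the median of all tested genes. RPRD1A at 16C against 8C (3.48) and CPSF7 in Morula against 16C (2.67) are the tallest, and NUDT21 in EarlyB against Morula (-1.94) is the lowest.

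Ranked within each library among the 15766 tested genes, NUDT21 lay between the 91.2 and 95.1 percentiles from MII to Morula and between 82.0 and 89.1 in EarlyB and ExpB. CPSF7 lay between 23.9 and 45.9 up to 16C and between 65.9 and 79.4 from Morula on. RPRD1A reached 86.3 to 91.5 at 16C, against 48.6 to 56.4 at 8C. In the comparisons given here the ranks, which do not depend on scaling, thus moved in the same directions as the levels of these 3 genes. In blastocysts the ranks of RPRD1A did not stand above those up to 8C as its levels did. They were 49.7 to 53.7 in EarlyB and 54.8 to 58.2 in ExpB, against 48.6 to 58.7 at 4C. CLP1 was at 54.2 to 60.8 in ExpB and at 74.0 to 77.9 at 2C, and Morula replicate 3 was at 26.4.

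**Figure D5:**
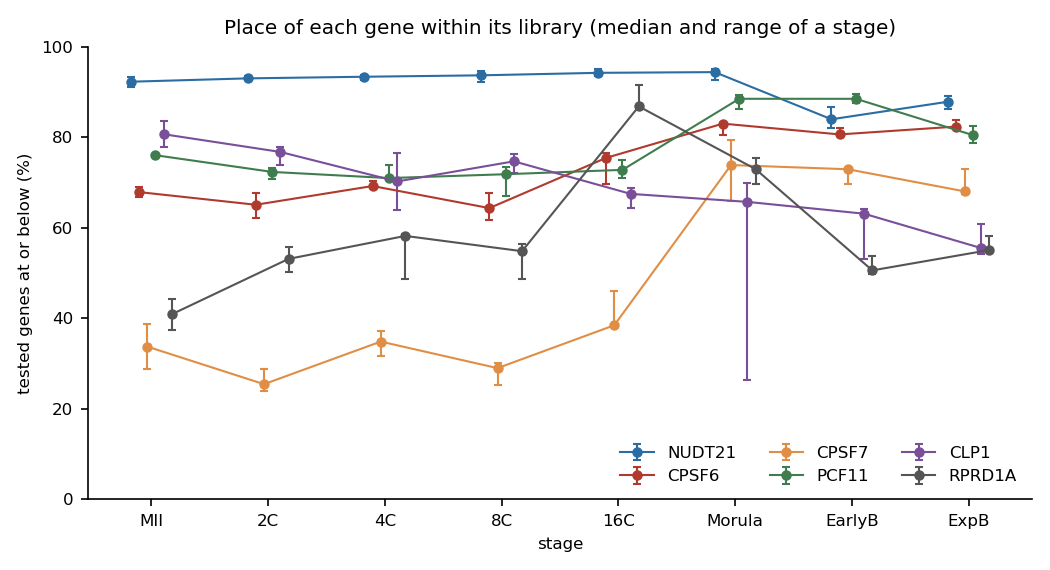
Percent of tested genes at or below the level of each of the 6 genes within a library, by stage; points are medians over the libraries of a stage and bars their range. NUDT21 is above 91 up to Morula and CPSF7 is below 46 up to 16C and above 65 after it.

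Beyond the 6 genes, 82 other genes of 3′-end formation, termination and their regulation were tested, in 7 lists. None was called at 4C against 2C or at 8C against 4C (beside 0.00634% and 0.907% of all tested genes). At 2C against MII, 3 were higher (3.66%, beside 4.44%) and 2 lower (2.44%, beside 2.01%), near the background. Among them was CCNK, the cyclin of the tail kinases CDK12 and CDK13, at -1.88 (adjusted p = 0.00091). At 16C against 8C, 10 were higher (12.2%, beside 5.54% of all tested genes) and 1 lower (1.22%, beside 2.01%), with a median difference of -0.09 beside -0.04. Of those 10, 4 were among 18 RNA-binding regulators of site choice, including HNRNPH1 (2.32, adjusted p = 5.3e-08) and SRSF3 (1.98, adjusted p = 8.1e-08), a serine- and arginine-rich splicing protein that averaged 667 ± 212 FPKM at 16C and 164 ± 24.5 FPKM at 8C (SD, n = 3 and 4). SNRPC, a U1 snRNP protein, gave 2.52 (adjusted p = 3.6e-05). RBBP6, a subunit needed for cleavage, gave 1.91 (adjusted p = 0.00028).

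In Morula against 16C, 23 of the 82 were higher (28.0%, beside 28.1% of all tested genes) and 11 lower (13.4%, beside 15.0%), shares close to the background, with a median of 0.55 beside 0.32. The CPSF and CstF subunits had 5 of 12 higher and 1 lower (median 0.80). The relatives of the RPRD genes, tail phosphatases and termination factors had 6 of 22 higher and 2 lower (median 0.73). Poly(A) polymerases and poly(A) binding proteins had 1 of 6 higher and 2 lower (median -0.45). Among the widest differences, besides that of RPRD1B, were those of LEO1, a PAF1 complex subunit, at -2.83 (adjusted p = 8.9e-10), and CSTF1, a subunit of the CstF complex, at -2.40 (adjusted p = 9.1e-08). CSTF1 averaged 90.7 ± 8.12 FPKM in Morula and 490 ± 122 FPKM at 16C (SD, n = 3 each), so a core subunit fell where CPSF6, CPSF7 and PCF11 rose.

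In EarlyB against Morula, 7 of the 82 were higher (8.54%, beside 14.7% of all tested genes) and 12 lower (14.6%, beside 12.4%), with a median of -0.01 beside 0.03. CTDSPL, a tail phosphatase, gave 2.19 (adjusted p = 1.2e-08), CSTF1 -1.91 (adjusted p = 4.6e-06), the poly(A) polymerase PAPOLG -1.79 (adjusted p = 5.4e-07) and the phosphatase subunit PPP1CC -1.70 (adjusted p = 6.8e-08). As deposited, ExpB against EarlyB had 0 higher (beside 4.65%) and 18 lower (22.0%, beside 13.1%), with a median of -0.54 beside -0.30. PCF11 was called lower there too, though not under median-ratio scaling. Among all tested genes the direction of this step depended on scaling. Fewer were higher (733) than lower (2060) as deposited, and values rescaled to a common sum gave the same direction (837 higher, 2344 lower). Median-ratio scaling reversed it (1225 higher, 915 lower), as did quantile normalization (1256 higher, 1049 lower). The split of the 82 is given as deposited only. ExpB against 2C had 22 higher (26.8%, beside 30.7%) and 18 lower (22.0%, beside 23.6%), again near the background, with a median of 0.11 beside 0.23. The genes lowest in that comparison were PABPN1L, an oocyte-type poly(A) binding protein, at -5.55 (adjusted p = 3.4e-12), CPEB1, which directs cytoplasmic polyadenylation in oocytes, at -5.54 (adjusted p = 9.7e-14), LEO1 at -5.41 (adjusted p = 1.1e-16) and PAPOLG at -4.57 (adjusted p = 4.4e-16). At 16C against 4C, which shares its 16C libraries with the step from 8C, 11 were higher (13.4%, beside 5.35%) and 3 lower (3.66%, beside 2.84%), with a median of 0.09 beside 0.00. PABPN1 and TARDBP were not analysed here.

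For each of the 6 genes, genes were named, as a description, from the 3 tested genes with the highest Pearson correlation of log2(FPKM + 1) over the 26 libraries. The libraries of a stage share their stage, so the 26 points are not independent. They were ERI1 (0.94), ARMC1 (0.93) and MCM6 (0.93) for NUDT21, DDX17 (0.98) and YKT6 (0.98) for CPSF6, and MRPL28 (0.99), NEU1 (0.99) and NDUFAF6 (0.98) for CPSF7. For PCF11 they were ATG2A (0.97) and 2 genes with locus names, LOC101104512 (0.97) and LOC101110524 (0.97). CLP1 had the weakest, KMT2A (0.82), NKAPD1 (0.82) and CKAP5 (0.82), and RPRD1A had ZBTB11 (0.94), LOC114114836 (0.94) and LOC114108665 (0.93). Among the 6, CPSF6 and CPSF7 correlated at 0.96 and CPSF7 and PCF11 at 0.92, while CPSF6 and CLP1 ran opposite at -0.74.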

How the data were processed

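The deposited table holds FPKM values made by the authors, 1 column per library and 30186 genes, of which 3740 were at 0 in every library. Per the submitters' processing notes, featureCounts 2.0.1, SAMtools 1.9, HISAT2 2.1.0 and fastp 0.23.4 were used; their roles and order are not stated. Genome build, annotation and strand setting were not given in the sources used here, so no coordinates are printed; 25443 row names are symbols in a sheep RefSeq gene table (ARS-UI_Ramb_v3.0), which was used only for names and overlapping neighbours. Reads were recovered from the steps of the FPKM values: between 99.7% and 100.0% of low values of small RNA genes were whole reads within 0.05 reads, all 23577 genes above 0 in 3 or more libraries received a length, and 97.8% of 630 small RNA lengths equalled the table.

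Stages were compared on log2(FPKM + 1) by limma 3.58.1 (R 4.3.3) over all 26 libraries with 8 stage means and a mean-variance trend. Genes with at least 1 FPKM in at least 2 libraries (15766) were tested, and p-values were adjusted by Benjamini-Hochberg over all of them within a comparison. The 3 ratios of levels were compared by exact permutation, with code that gave the same p as SciPy 1.17.1 on a simulated example. Scripts were tested on simulated data. Alternatives were a pseudocount of 0.1, no filter, values rescaled to a common sum, median-ratio and quantile scaling, array weights, fits of only the 2 stages compared, limma-voom on recovered reads, a replicate block and leaving out each library. The lowest chi-square per degree of freedom between libraries of a stage was 27.7, and no pair was identical. Named genes were the 6 members, up to 4 listed genes per comparison with the largest absolute difference among those called, and the 3 most like genes per member; some results under this rule are not reported here. The members and lists were chosen with earlier results of these data known.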

Additional observations from a re-analysis of the deposited data

Results flagged for a closer look

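In all, 2 values stood apart from the other libraries of their stage, among 27 groups of 4 libraries examined in this way, where chance alone gives about 5% of groups. CPSF7 was at 10.1 FPKM in ExpB replicate 4, above the other 3 ExpB libraries, which lay between 7.33 and 7.61 FPKM. The log2 ratio of PCF11 to CLP1 was -0.268 in 2C replicate 1, against -0.557 to -0.55 in the other 3 libraries of 2C. Groups of fewer than 4 libraries were not examined, so the low CLP1 level of Morula replicate 3 (0.909 FPKM) was not among them.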

How the results depend on the processing

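No called difference of the 6 genes reversed in direction. Uncalled ones near 0 did under other scalings: NUDT21 in Morula against 16C (0.16 as deposited, -0.22 on rescaled values), CPSF6 and RPRD1A in ExpB against EarlyB (0.30 and 0.15 with median-ratio scaling, -0.06 and -0.16 as deposited) and PCF11 in EarlyB against Morula (0.08 with quantile normalization, -0.15 as deposited), among others. At 2C against MII, 1 of the 6 genes (RPRD1A) was called with a pseudocount of 0.1, on the rescaled values, with limma-voom and without MII replicate 2, and 0 otherwise, a range of 0 to 1 over left-out libraries. At 16C against 8C, 2 were called with a pseudocount of 0.1 (CPSF7 added, 1.34) and with limma-voom (CPSF6 added, 1.01), and 1 to 2 over left-out libraries (CPSF6 added without 16C replicate 1, 1.11). In ExpB against EarlyB, 0 were called with median-ratio scaling. Over left-out libraries 3 to 4 were called in Morula against 16C, and the CPSF6 difference there was 0.76, 0.87, 0.87 and 0.98 on rescaled values, median-ratio scaling, quantile normalization and array weights. The cause of these shifts was not tested. The 3 ratios were at the smallest p the test allows and hardly depend on scaling, so the alternatives say little of their stability. Numbers of all genes called were less stable: 1017 at 2C against MII (217 without MII replicate 1 to 1653), 1 at 4C against 2C (0 to 300), 143 at 8C against 4C (0 to 254), 1191 at 16C against 8C (316 to 1980), 1290 at 16C against 4C (162 to 1911) and 2793 in ExpB against EarlyB (2140 to 4210). Replicate numbers are shared between stages, but same-numbered libraries did not deviate together in every pair (mean correlation 0.03 over 80 pairs, lowest -0.15, highest 0.40), and with the replicate number as a block the members called were 0, 0, 0, 1, 4, 2, 1, 1 and 4 in the 9 comparisons and 6 in the F test, the counts without it. CPSF7 before 16C rests on 18 to 90 recovered reads per library, which limits its low values.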

Other observations

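Genes of proteins that work with these factors outside the cleavage complex also varied in RNA level with stage, as most tested genes did (93.7% by the F test). They were picked for description after their values were seen. TSEN54, a subunit of the tRNA splicing endonuclease in which CLP1 is also found, averaged 7.24 ± 0.918 FPKM in the 3 Morula libraries (SD) and was at 0.143, 0.232 and 2.63 FPKM at 16C, from lowest to highest. The difference of TSEN54 was 2.25 (adjusted p = 2.9e-07), while CLP1 itself was not called there. Of the 4 genes listed for this endonuclease, 1 was called higher in that step and 0 lower. Their median was 0.46, beside 0.32 for all tested genes. TSEN54 was also higher in ExpB than at 2C, by 2.61 (adjusted p = 7.3e-10). TNPO3 carries arginine- and serine-rich proteins, CPSF6 among them, into the nucleus. It averaged 45.1 ± 5.09 FPKM in Morula and 15.3 ± 13.0 FPKM at 16C (SD, n = 3 each), and rose by 1.83 (adjusted p = 7.6e-05). Of the 5 genes listed for this transport, 1 was called higher in that step and 2 lower. Their median was -0.43, beside 0.32 for all tested genes. TNPO1, another carrier, was lower in ExpB than at 2C, at 6.51 ± 1.04 FPKM and 17.7 ± 1.63 FPKM (SD, n = 4 each; difference -1.32, adjusted p = 2.2e-06).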
